A study of Saccharomyces cerevisiae with 30 samples.

Results

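Depletion of the chromatin remodeller INO80 was compared with a WT control strain for where chromosomal DNA broke in growing budding yeast (Saccharomyces cerevisiae) without a replication inhibitor. The members are break regions. All Break-seq peaks of the 2 INO80-FRB and the 2 WT-FRB libraries without hydroxyurea (HU) were merged into 588 regions, whereas the 16 Break-seq lists of the series merge into 759. A region counted as gained when both INO80 lists and neither WT list had a peak there, as lost when both WT lists and neither INO80 list had one, and as shared when all 4 had one. The rule gave 27 gained regions (4.59% of the 588), 33 lost regions (5.61%) and 175 shared regions (29.8%). Gained and lost name a pattern of presence in 4 lists and are not calls of a test.

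The series studies how INO80 and Mot1 act at replication origins and holds 30 samples, with NET-seq libraries that are not analysed here. Both groups are log-phase cultures in rich medium at 30 °C that had rapamycin for 3 h. In anchor-away, rapamycin joins a nuclear protein fused to the FRB domain to an anchor that leaves the nucleus. The genotype labels are INO80-FRB, in which the remodeller carries the tag, and WT-FRB, whose label does not say what carries FRB (both n = 2). They are called INO80 and WT here. No label says whether the replicates are separate cultures or clones, so the spread between them may be technical. No peak of the 4 lists lay in any of the 15 genes of the INO80 complex, and peak lists cannot show whether INO80 had left the nucleus.

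INO80 is a multi-subunit ATPase that slides and edits nucleosomes. It is known in yeast for work at promoters, stalled replication forks and broken DNA ends. Break-seq labels free DNA ends inside agarose plugs and sequences them, so a peak marks a place with more labelled ends than its surroundings. Such ends are known to be frequent at repeated sequences, among them Ty retrotransposons, chromosome ends and ribosomal DNA.

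The INO80 lists held 365 and 318 peaks, against 510 and 373 in the WT lists. The log2 number of peaks differed by -0.36 (exact two-sided permutation test, p = 0.33, the smallest that 2 against 2 libraries can give, adjusted p = 0.364 over 12 tests). Together the peaks covered 186572 and 161599 bp in INO80, against 181613 and 162215 bp in WT. So the INO80 lists had fewer and wider peaks, with a median width of 344 and 345 bp, against 242 and 292 bp in WT. Read totals are unknown. Among the backgrounds worked out from the peaks, the lowest was 9.39 and 8.11 reads in INO80, and 31.1 and 24.2 reads in WT, a gap that runs in the direction of the genotype and cannot be told apart from it.

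The first WT library stood apart. It alone accounted for 191 regions, of which 156 lay outside repeats and 125 touched a promoter. The Jaccard index, the share of covered bases held in common, was 0.670 between the INO80 lists and 0.453 between the WT lists. Across genotypes, the second WT list overlapped the INO80 lists with indices of 0.554 and 0.571, which is above its index with the other WT list. The first WT list gave 0.444 and 0.410 with the INO80 lists. Counts of members and differences in class shares are given without it as well.

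**Figure D1:**
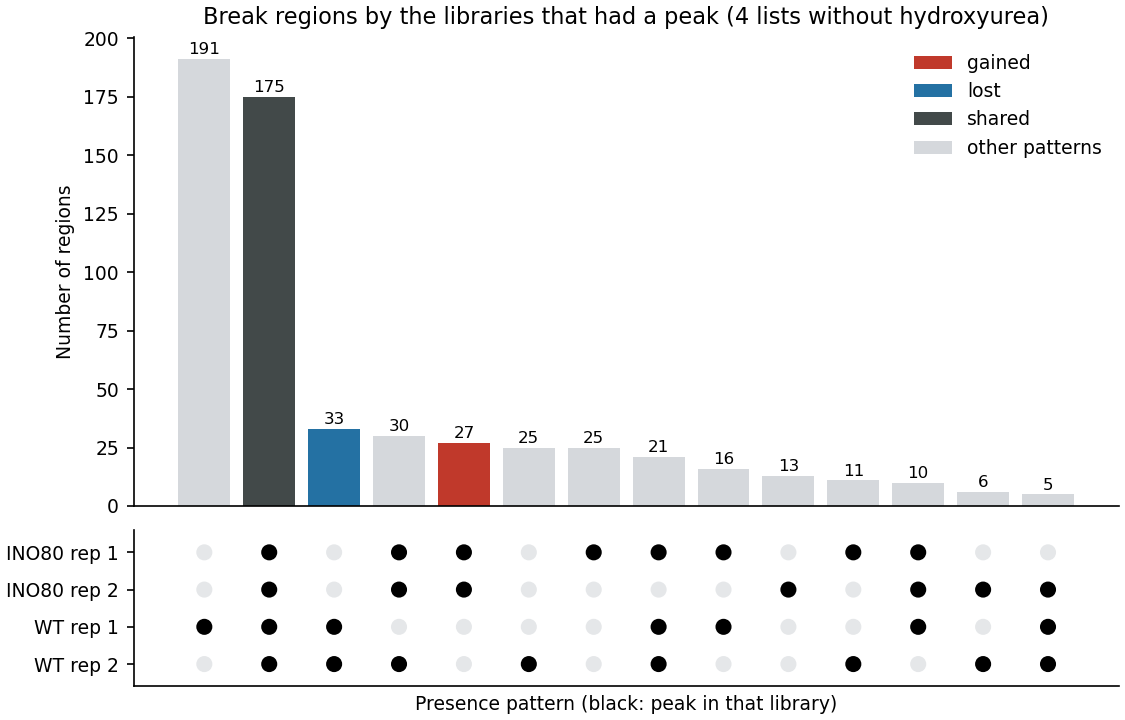
Number of merged break regions (y axis) for each pattern of presence in the 2 INO80 and 2 WT libraries (black dots under the bars). The 191 regions found in the first WT library alone are the tallest bar, followed by the 175 shared regions; 27 regions were gained and 33 lost.

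Near misses were about as many as members. Both INO80 lists and 1 WT list had a peak in 40 regions, 26 of them in Ty-length frames. Both WT lists and 1 INO80 list had a peak in 26 regions, 10 of them in such frames. A further 254 regions came from 1 list only. The counts of members depended on each library. Without the first or the second INO80 library there were 46 or 52 gained regions and 54 or 39 lost ones. Without the first WT library there were 40 gained and 60 lost regions, and without the second WT library 58 and 226. Merging peaks up to 500 bp apart left 6 gained and 22 lost regions, of which 5 of the 6 lay in Ty frames and 17 of the 22 outside repeats.

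Gained and lost regions lay in different kinds of DNA. Of the 27 gained regions, 22 lay in Ty frames, the 40 reading frames of 5251 to 5410 bp that have no gene name in the gene table and are as long as the joined frame of full-length Ty elements. This was 81.5% of gained regions (95% exact interval 61.9 to 93.7%), against 6 of 33 lost regions (18.2%, 6.98 to 35.5%) and 183 of all 588 regions (31.1%). Of the 33 lost regions, 21 lay outside repeats, that is outside Ty frames, ribosomal DNA, the last 10 kb of chromosomes and mitochondrial DNA. The term covers these classes alone: repeated sequence of another length or farther from an end, such as the lost region in YRF1-4, counts as outside. So do regions in shorter frames without a gene name, such as YAR009C, YGR109W-B and YIL082W-A, which may also be Ty elements. The 21 regions were 63.6% of lost regions (45.1 to 79.6%), against 3 gained regions (11.1%, 2.35 to 29.2%) and 230 of all regions (39.1%). Without the first WT library, 60% of gained regions lay in Ty frames and 56.7% of lost regions outside repeats. The shares over all regions are shaped by the 191 found in the first WT library alone, 9 of them in Ty frames and 156 outside repeats. The rule used the same 4 lists, so these shares describe the members and were not tested. Intervals cover counting error only.

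The remaining gained regions were 1 at a chromosome end and 1 in ribosomal DNA. The remaining lost regions were 6 at chromosome ends. No gained and no lost region lay in mitochondrial DNA, where 25 shared regions and 59 of all 588 regions (10.0%) lay. The exact intervals of these absences reached 12.8% for gained and 10.6% for lost regions. Both include the share over all regions, so the absences show no difference from it. Read by class, 12.0% of the 183 Ty regions were gained and 3.28% lost, whereas 1.30% of the 230 regions outside repeats were gained and 9.13% lost. Regions found in the first WT library alone made up 9 of the 183 and 156 of the 230. The rule could call these neither gained nor lost, so they lower both percentages outside repeats more than those in Ty frames.

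**Figure D2:**
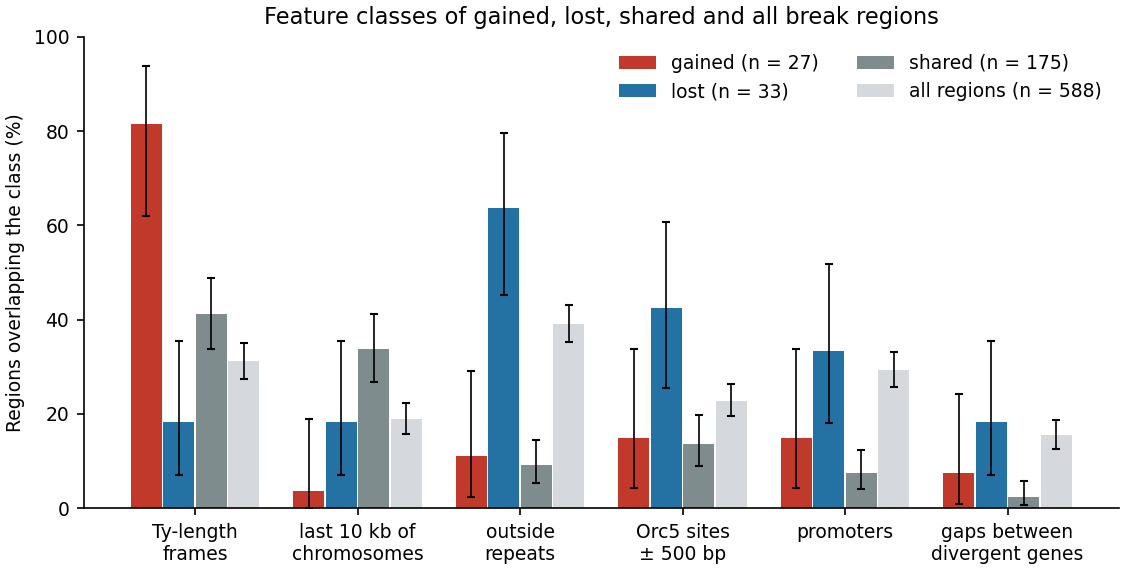
Percentage of gained, lost, shared and all regions (y axis) that overlap each feature class by at least 1 bp; bars carry exact 95% binomial intervals and a region can be in several classes. The gained bar is the tallest for Ty-length frames (81.5%), and the lost bar for DNA outside repeats (63.6%) and Orc5 sites (42.4%).

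Members of both kinds were narrower than shared regions and similar in width to all regions. The highest fold over local background in a gained region had a median of 2.34 and 2.29 in the INO80 lists, and in a lost region a median of 1.95 and 1.98 in the WT lists. Shared regions had medians of 2.64 and 2.71 in INO80, against 1.99 and 2.13 in WT. Over all regions with a peak in the list the medians were 2.40 and 2.52 in INO80, against 1.87 and 2.02 in WT, so lost regions stood on either side of them. All folds are the authors' values for peaks within 1 list. Gained regions ranked low within the INO80 lists, with median score percentiles of 34.0 and 30.7. Lost regions stood nearer the middle of the WT lists, at 56.2 and 42.2. The median width was 311 bp for gained, 290 bp for lost and 768 bp for shared regions, and 284.5 bp over all 588.

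**Figure D3:**
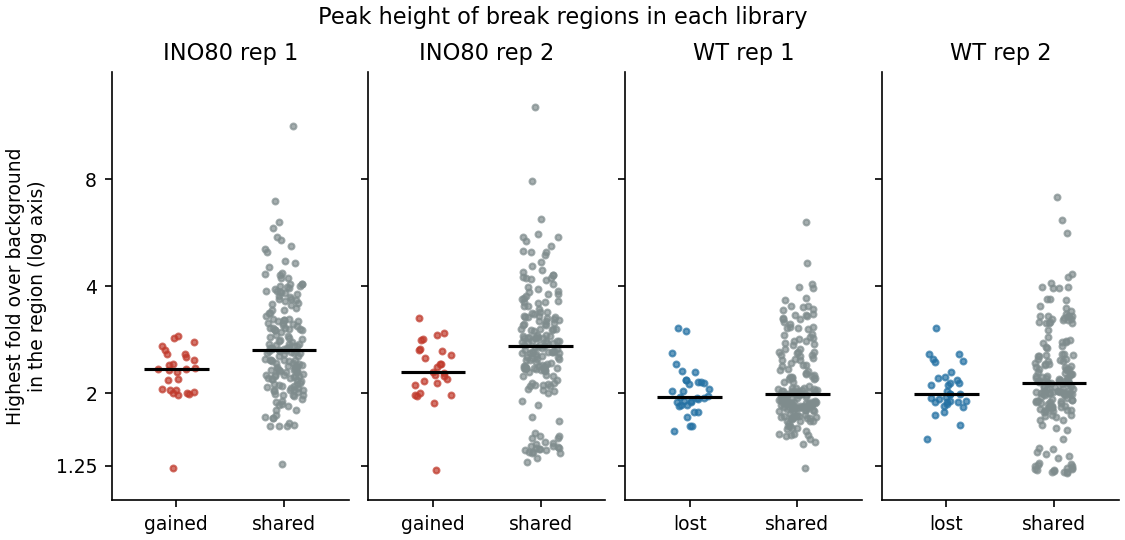
Highest fold over local background of each region (y axis, log axis) in each library, with 1 point per region and a line at the median. Gained regions, shown in the INO80 libraries, have medians of 2.34 and 2.29; lost regions, shown in the WT libraries, have medians of 1.95 and 1.98, close to the shared regions of the same libraries (1.99 and 2.13).

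Ty elements are retrotransposons that copy themselves through RNA, and their many near-identical copies share reads. How reads that match several copies were placed is not given in the sources used here, so the copy that a stretch is assigned to is uncertain. Within Ty frames the gained regions were stretches assigned to frames that also had peaks elsewhere in the WT lists. Given the uncertain copy, this cannot show which elements were broken. Of the 40 frames, 38 had a peak in each list, which left little room for a whole frame to be gained or lost. Counted by whole frame, 0 frames were gained, 0 were lost and 37 were shared by all 4 lists. The 22 gained stretches lay in 17 frames, all with peaks in both WT lists. Their distance to the nearest WT peak had a median of 405 bp, and 13 of 22 were within 500 bp of a WT peak.

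INO80 peaks covered more of the Ty frames than WT peaks. They covered 39.4% and 34.8% of the frames' length in INO80, against 18.6% and 31.1% in WT, so the groups did not overlap, and the second WT library was nearer to both INO80 libraries than to the first WT library. The number of peaks per frame did overlap, at 4.10 and 3.85 in INO80, against 3.18 and 4.28 in WT. Median backgrounds of peaks in Ty frames were 25.4 and 23.4 reads in INO80, against 39.3 and 38.6 reads in WT. The part of this difference in background in the cover of Ty frames and in the gained stretches was not tested. The stretch from 1000 to 2000 bp of the frame was covered to 42.1% and 38.5% in INO80, against 14.2% and 30.0% in WT. From 4000 to 5000 bp, cover was 53.2% and 47.5% in INO80, against 21.3% and 40.8% in WT. In the first 1000 bp the groups overlapped, with 27.2% and 20.9% in INO80, against 22.3% and 21.6% in WT. From 2000 to 3000 bp they overlapped too, with 34.9% and 28.1% in INO80, against 19.0% and 28.5% in WT. The same held from 3000 to 4000 bp, with 30.7% and 32.2% in INO80, against 15.9% and 32.5% in WT.

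**Figure D4:**
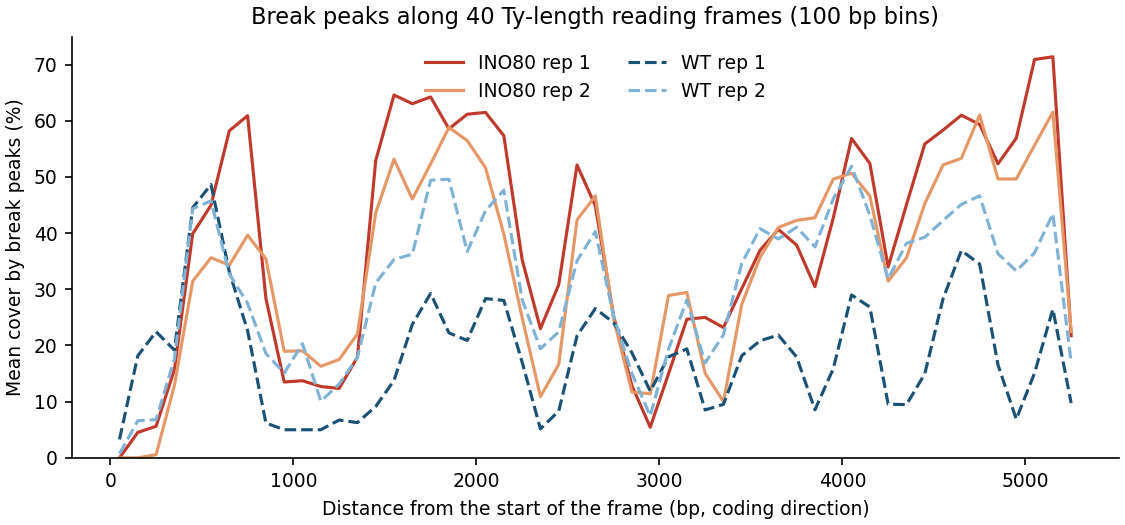
Mean cover by break peaks (y axis, %) along 40 Ty-length frames in 100 bp bins from the start of the frame in coding direction (x axis). The INO80 libraries (solid) lie above the WT libraries (dashed) from about 1500 to 2000 bp and beyond 4500 bp, and all 4 have a common valley near 3000 bp.

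The gained stretches were spread over the frame, with midpoints between 671 and 5169 bp from its start, 7 of them in the first 2000 bp. YMR045C on chromosome XIII held 3 of them, and YBL005W-B, YGR161C-D and YMR050C held 2 each. The 6 lost stretches lay in 5 frames, with midpoints between 3025 and 3770 bp. YDR210W-B held 2 lost stretches. YCL019W and YDR034C-D each had a gained and a lost stretch, so presence and absence of assigned peaks alternated along 1 frame.

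The 4 gained stretches with the largest peak width summed over the libraries each stood at least 188 bp from the nearest WT peak. In YOR192C-B (chrXV:704621-705255, sacCer3, in the coding frame) the fold was 2.58 and 3.26 in the INO80 libraries. Its summits held 54 and 56 reads over backgrounds of 20.3 and 16.5 reads, and the WT libraries had no peak within 310 bp. In YPL257W-B (chrXVI:58181-59013) the fold was 2.19 and 2.12 in INO80. In YBR012W-B (chrII:264515-265236) it was 2.79 and 2.63, and in YMR045C (chrXIII:357265-357712) it was 2.58 and 1.98. Each of the 4 reached the downstream part of its frame except that of YPL257W-B, which lay in the upstream part.

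Outside these repeat classes 3 regions were gained, and each lay in or beside a frame that has no gene name in the table. These frames, YAR009C, YGR109W-B and YIL082W-A, are 3591, 4645 and 4498 bp long and so too short to count as Ty frames here. The gene table does not say whether such frames belong to Ty elements, so these 3 regions may also lie in or beside Ty DNA. The first (chrI:161509-161834) was inside YAR009C, with folds of 2.30 and 2.24 in the INO80 lists and the nearest WT peak 234 bp away. The second (chrVII:707333-707573) was the highest, with folds of 2.89 and 2.96 in INO80. It lay between the tRNA gene YNCG0030C and YGR109W-A, 277 bp upstream of the start shared by YGR109W-A and YGR109W-B, and 1400 bp from a WT peak. The third (chrIX:205355-205576) lay between CAB2, a gene of coenzyme A synthesis, and YIL082W-A, 280 bp upstream of the start of YIL082W-A. It had folds of 2.86 and 2.82 in INO80 and stood 76 bp from a WT peak.

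The frames downstream of those last regions, which may likewise be Ty elements, carried lost regions. In YGR109W-B 2 stretches were lost, at chrVII:708974-709254 with WT folds of 1.71 and 2.14, and at chrVII:711916-712282 with WT folds of 2.99 and 3.05. In YIL082W-A 2 stretches were lost as well, at chrIX:205653-206105 with WT folds of 2.30 and 2.11, and at chrIX:207741-208048 with WT folds of 1.61 and 1.84. Counted whole, YGR109W-B had peaks in the WT lists only, whereas YIL082W-A was not a lost gene, since an INO80 list also had a peak inside it. The second YGR109W-B stretch lay 11 bp from a peak of the first INO80 list and 4342 bp from one of the second, and all 4 lists of both genotypes with HU had a peak in it.

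The 33 lost regions included peaks over protein-coding genes that stood far from any INO80 peak. The widest was at URA3 (chrV:116033-116910), which encodes an enzyme of uracil synthesis. The region spanned 92.5% of the gene and had 72 and 63 reads at the summit in the WT lists, over backgrounds of 32.8 and 24.6 reads, which makes folds of 2.16 and 2.50. The nearest INO80 peaks were 109788 and 109811 bp away. At HMRA1 (chrIII:293800-294313), the a1 gene of the silent mating cassette HMR, the region spanned 98.4% of the gene, with WT folds of 1.90 and 2.58. At FDH1 (chrXV:1071787-1072630), a formate dehydrogenase gene, it spanned 74.1% of the gene, with WT folds of 2.15 and 1.90. YHR007C-A on chromosome VIII was spanned whole (chrVIII:122454-122855), with WT folds of 1.77 and 1.98. The peaks at these genes were thus broad relative to the gene, and neither INO80 list had a peak there.

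Several lost regions lay in or beside genes of cell surface proteins. FLO9, a flocculin gene, had 1 lost region inside it (chrI:24800-25255, WT folds of 2.03 and 1.83) and 1 between it and YAL063C-A (chrI:22752-23130, WT folds of 1.84 and 2.46). Of the 5 flocculin genes listed, FLO9 alone was lost as a whole gene. FLO5 had a peak in the first INO80 list and in both WT lists, and FLO10 and FLO11 in the first WT list alone. FLO1 had a peak in all 4 lists, at chrI:206274-206569 with folds of 4.72 and 3.29 in INO80, against 3.24 and 3.65 in WT. FIT1, a mannoprotein gene of iron uptake (chrIV:1504125-1504451), had WT folds of 2.06 and 2.18. DAN4, a wall mannoprotein gene of anaerobic growth (chrX:712657-712951), had WT folds of 1.95 and 2.14. A region between YOL155W-A and the mannoprotein gene HPF1 (chrXV:27883-28189) had WT folds of 2.12 and 1.89 and lay 30 bp from a peak of the first INO80 list. Whether cell surface genes are more frequent than among other regions was not tested.

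Further lost regions lay in gaps between genes. These were TDA8 to YAL064W (chrI:16145-16400, WT folds of 1.93 and 1.98), PMP2 to GTT3 (chrV:122992-123229, WT folds of 2.14 and 1.89) and SNZ3 to THI5, genes of vitamin B6 and thiamine synthesis (chrVI:12371-12553, WT folds of 1.93 and 2.30). The gap from NAT4, a histone acetyltransferase gene, to MOT3, a gene of a DNA-binding repressor, was another (chrXIII:408819-409031, WT folds of 1.85 and 1.86). The gap from HSP33 to ERR1 was the last (chrXV:1079591-1079775, WT folds of 2.29 and 2.22). Inside genes, a region of ENA1, a sodium pump gene (chrIV:535389-535644), had WT folds of 1.77 and 1.63. ENA1 as a whole was not lost, because the second INO80 list had another peak in it. A region in YLR464W and the overlapping YRF1-4 (chrXII:1067205-1067492) had WT folds of 2.42 and 1.96. The last, in MOR1 (chrIV:1212434-1212606), was among the highest, with WT folds of 3.05 and 2.44. It lay 168 bp from the Ty frame YDR365W-B and 119 and 137 bp from INO80 peaks.

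Most of these lost regions were lower than the lowest peaks that the INO80 lists contained at their own lowest background. Near that background the lowest fold called was 2.41 and 2.32 in the INO80 lists (21 and 10 peaks), against 1.59 and 1.79 in the WT lists (218 and 58 peaks). Of the 21 lost regions outside repeats, 19 had a fold below 2.32 in at least 1 WT list. The other 2 were those in MOR1 and the second of YGR109W-B, which lay within 119 and 11 bp of an INO80 peak. The 3 gained regions outside repeats all had folds above 1.59 in both INO80 lists. Those folds stood over INO80 backgrounds of 8.11 to 23.8 reads, below the lowest WT backgrounds of 31.1 and 24.2 reads. They therefore cannot tell whether a WT list would have called the same ends. The part of the difference in lowest height called, and of the difference in background behind it, in lost or gained regions was not tested.

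Counted by whole gene, the lost side was again longer than the gained side. Of the 6477 genes in the table, 240 overlapped a peak in at least 1 of the 4 lists. Of these, 118 had a peak in all 4, 12 were lost and 2 were gained. The lost genes were FLO9, HMRA1, RDS1, MOR1, FIT1, URA3, YGR109W-B, YHR007C-A, DAN4, COS5, YLR464W and FDH1. The gained ones were YER137C-A and the ribosomal spacer ITS2-1. YER137C-A lies inside the Ty frame YER138C, which had peaks in all 4 lists, and holds the gained stretch of that frame. No peak of any list lay in the 9 histone, 11 glycolysis, 11 phosphate and inositol, 14 DNA damage or 18 replication initiation genes listed. Of 132 ribosomal protein genes, RPL4B and RPS6A had a peak, both in the first WT library alone. Of 17 hexose transporter genes 2 had a peak, each in 1 WT list.

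Replication origins are bound by the origin recognition complex, of which Orc5 is a subunit. Sites were marked by the 1412 peaks of the Orc5 list without rapamycin that are at most 10 kb wide, each widened by 500 bp on either side. Not every such site is known to be an origin, and together they cover 17.0% of the nuclear genome. Of the 33 lost regions, 14 lay at an Orc5 site (42.4%, 95% exact interval 25.5 to 60.8%), against 4 of 27 gained regions (14.8%, 4.19 to 33.7%), 24 of 175 shared regions (13.7%) and 134 of all 588 (22.8%). Of the 14, 11 were outside repeats and 9 overlapped the Orc5 peak itself rather than its flank, close to the shares over all 134 regions at Orc5 sites, 94 and 77. Among regions outside repeats, 11 of the 21 lost ones lay at Orc5 sites, against 94 of all 230. That is a narrower gap than the 42.4% against 22.8% over all classes. The first WT library alone gave 72 of the 134 regions at Orc5 sites, which the rule could call neither gained nor lost. Without the first WT library, 33.3% of lost regions were at Orc5 sites. None of the 4 gained regions overlapped the peak itself, and 3 of them were in Ty frames. Among the lost regions named above, those at URA3, HMRA1, FDH1, FIT1 and YHR007C-A were at Orc5 sites, as was the stretch of YIL082W-A at chrIX:205653-206105. So were those between PMP2 and GTT3, NAT4 and MOT3, HSP33 and ERR1, TDA8 and YAL064W, and YAL063C-A and FLO9. The low folds of these peaks and the higher background of the WT lists apply here too.

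The share of a library's nuclear peaks at Orc5 sites was 13.2% and 9.42% in INO80, against 24.2% and 13.6% in WT. The INO80 values were both lower, but the difference of means, -7.58 percentage points, did not pass the test (exact permutation, p = 0.33, adjusted p = 0.364). Without the first WT library it was -2.26 points. Peaks outside repeats showed the same order, with 11.9% and 10.5% in INO80, against 45.5% and 17.9% in WT, a difference of -20.5 points that came to -6.70 points without the first WT library. Promoters, the 500 bp before each protein-coding gene, held 8.71% and 7.61% of INO80 peaks, against 34.5% and 12.4% of WT peaks. Their difference of -15.3 points came to -4.27 without that library.

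Shares of repeats went the other way. Ty frames held 52.9% and 55.8% of nuclear peaks in INO80, against 28.5% and 49.4% in WT. The difference was 15.4 points, and 4.93 points without the first WT library. Chromosome ends held 33.9% and 31.9% in INO80, against 25.3% and 31.8% in WT, a difference of 4.31 points, and 1.09 points without the first WT library. Of all peaks, mitochondrial DNA took 15.1% and 13.2% in INO80, against 12.5% and 7.24% in WT, a difference of 4.24 points, and 6.90 points without that library. Each of these shares had p = 0.33 by exact permutation and an adjusted p = 0.364. Only ribosomal DNA overlapped between the groups among the 12 measures tested, with 2.90% and 2.17% in INO80, against 1.57% and 2.60% in WT (exact permutation, p = 0.667, adjusted p = 0.667). The groups did not overlap in the other 11, which is as far as 2 against 2 libraries can go.

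Arp5, a subunit of the INO80 complex, was mapped by ChIP-seq in other samples. On the 11 chromosomes with peaks in both lists without rapamycin, Arp5 peaks overlapped 12 of 18 gained regions (66.7%), 9 of 19 lost regions (47.4%), 61 of 79 shared regions and 183 of all 288 (63.5%). Gained and lost regions thus stood on either side of the share over all regions, with wide intervals of 41.0 to 86.7% and 24.4 to 71.1%.

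Chromosome ends carry Y' elements, whose helicase genes are the YRF1 family. All 8 YRF1 genes had a peak in all 4 lists and none was gained or lost as a gene. The gained region at an end was in YEL077C (chrV:3688-3978), with folds of 2.002 and 2.834 in INO80. The widest lost ones were in YRF1-5 (chrXII:1073552-1073944, WT folds of 1.85 and 1.93), in RDS1, a gene of a zinc cluster protein (chrIII:311122-311432, WT folds of 1.96 and 2.10), between YFL064C and COS4 (chrVI:4059-4348, WT folds of 2.59 and 2.20) and in COS5 (chrX:743004-743241, WT folds of 2.18 and 2.58). COS5 and DAN4 were the lost members of the 43 subtelomeric family genes, of which 4 had any peak. The ribosomal DNA region was in the ITS2-1 spacer (chrXII:455166-455408), where INO80 folds were only 1.23 and 1.21 over a background of 253 and 260 reads.

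The 175 shared regions included the highest peak of each of the 4 lists. They comprised 72 Ty regions, 59 at chromosome ends, 25 in mitochondrial DNA and 16 outside repeats. The highest was at YLR162W and RRT15 (chrXII:489722-490473), near the ribosomal DNA array, with folds of 11.3 and 12.7 in INO80, against 6.07 and 7.12 in WT. Its summit held 284 and 298 reads in INO80, against 284 and 306 in WT, so the reads were alike and the backgrounds were not: they were 24.2 and 22.5 reads in INO80, against 46.0 and 42.1 in WT. The next, between the RNA gene YNCC0009C and MAK32 (chrIII:151562-151850), had folds of 6.93 and 7.90 in INO80, against 4.65 and 5.63 in WT, with 71 reads in each INO80 library, against 148 and 141 in WT. YLR256W-A (chrXII:651224-652346) had folds of 6.07 and 5.49 in INO80, against 2.21 and 3.25 in WT. In these 3 regions folds were higher and backgrounds lower in INO80 than in WT, and folds were not tested between lists.

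The libraries that the rule did not use showed how far the members recurred. Cells of both genotypes were also sampled with 100 mM HU, which depletes deoxynucleotides and stalls replication forks, and INO80 was also depleted together with Mot1, a remover of the TATA-binding protein, with and without HU. Of the 27 gained regions, 24 and 18 had a peak in the INO80 lists with HU, against 8 and 14 in the WT lists with HU. Over all 588 regions the INO80 lists with HU had a peak in 47.4% and 44.0%, and the WT lists with HU in 31.8% and 39.5%. Both INO80 lists with HU had a peak in 17 gained regions (63.0%, against 38.1% of all regions), and both WT lists with HU in 6 (22.2%, against 27.6% of all regions). All 588 regions include the 191 found in the first WT library alone. Shared regions recurred more, 90.3% of them in both INO80 lists with HU and 74.9% in both WT lists with HU. In 7 gained regions (25.9%) both INO80 lists and neither WT list with HU had a peak, the same order as without HU. Over all 588 regions this held for 3.91%. The opposite order held in 0 gained regions and in 3 of all 588 (0.51%), so that count says little.

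**Figure D5:**
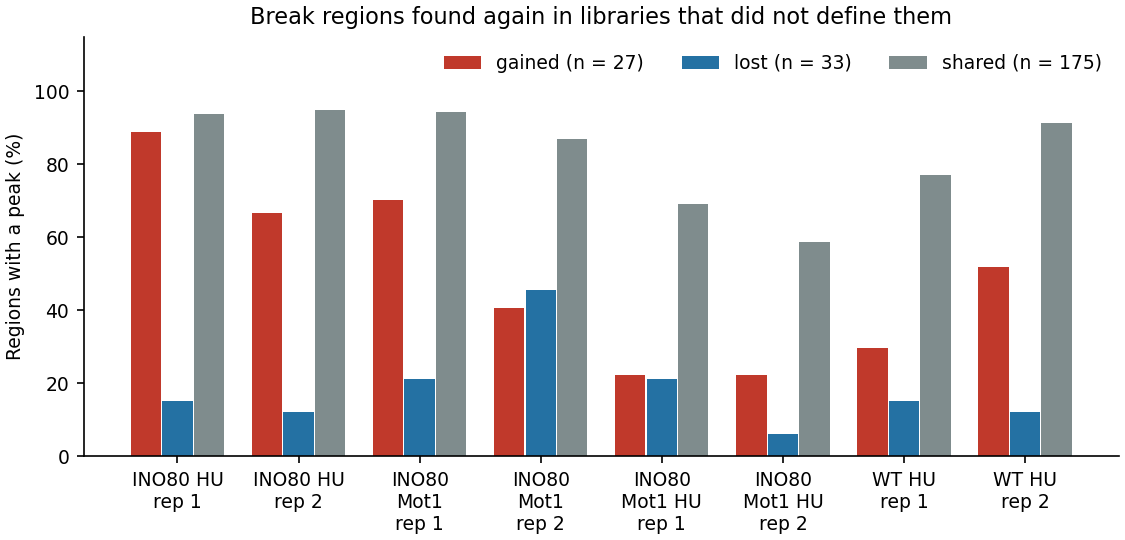
Percentage of gained, lost and shared regions (y axis) with a peak in each of 8 libraries that did not define them. Gained regions recur in 24 and 18 of 27 cases in the INO80 libraries with HU, against 8 and 14 in WT with HU; lost regions recur in at most 5 of 33 in these 4 libraries.

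Lost regions recurred little in the INO80 and WT libraries with HU. Of the 33, 5 and 4 had a peak in the INO80 lists with HU, against 5 and 4 in the WT lists with HU. In 25 of them (75.8%) none of these 4 lists had a peak, which was so for 44.2% of all regions. Both WT lists and neither INO80 list with HU had a peak in 0 of the 33, and in 3 of all 588 regions (0.51%), so these lists say little about a loss. The WT lists with HU had a lowest background of 11.0 and 10.7 reads, near the INO80 lists with HU at 8.44 and 10.7.

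The lists of cells depleted of INO80 and Mot1 differed from each other. Gained regions had a peak in 19 and 11 of 27 cases (70.4% and 40.7%) in these lists without HU, and lost regions in 7 and 15 of 33 (21.2% and 45.5%), against 44.4% and 41.0% of all regions. The second list thus had gained and lost regions at about the share of all regions. It had a peak in 7 of the 14 lost regions at Orc5 sites, and the first list in 1. The lowest background was 11.4 reads in the first list and 21.2 reads in the second, and its part in these counts was not tested. The second list had peaks in the lost regions at FLO9, FDH1 and URA3 and none in those at HMRA1, FIT1 and YHR007C-A. The HU lists of this double depletion had a peak in 6 and 6 gained regions (22.2% and 22.2%) and in 7 and 2 lost regions (21.2% and 6.06%). Over all regions the shares in these lists were 28.1% and 22.6%, so gained regions did not recur above them. The Mot1 lists without INO80 depletion hold few peaks and were not read for members.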

How the data were processed

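Break-seq peak lists, 1 per library and not pooled, were used as deposited; reads were paired-end, 75 bp, per the labels. Bowtie2 and the build sacCer3 are named in the submitters' processing notes, without versions. Which peak caller was run is not given in the sources used here. A deposited Break-seq peak has a score, a fold over local background, −log10 p and −log10 q, all the authors' values. The Orc5 and Arp5 lists supplied the positions of deposited peaks. The reads at a summit and its background were solved from the deposited fold and −log10 p of each peak with a Poisson tail (tolerance 0.001 of −log10 p; solved for 100% of peaks in the 4 lists). Read totals are unknown.

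Peaks overlapping by at least 1 bp were merged. Classes came from a table of 6477 genes (assembly R64). Library values were compared by exact two-sided permutation with Benjamini-Hochberg adjustment over 12 tests (Python 3.11.15, scipy 1.17.1). Merging was tested on simulated lists. Members, classes and gene lists were chosen with earlier results of these data known. All gained and lost regions outside repeats are named; in repeats, the up to 4 widest per class and direction; frames with several stretches and genes counted whole were named after their values were seen; of shared regions and gene lists, examples among those with the highest fold or most libraries. The alternatives were other merging, overlap and peak filters, a replicate block, leaving out each library and, added after the data were seen, whole genes and a minimum fold reached in all lists.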

Additional observations from a re-analysis of the deposited data

How the results depend on the processing

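Of 221 values of 23 results recomputed under the alternatives, 195 were labelled the same as the main value. For shares of regions the label meant a value inside the exact interval of the main share, and for counts a similar size. For the library measures it meant only that the difference kept its direction, because 2 against 2 libraries cannot give a low p. Such differences could change much in size: that of Ty frames was 15.4 points, and 4.93 points without the first WT library. With peaks up to 500 bp apart merged, 6 regions were gained, 22 lost and 114 shared, with 4.55% of lost regions in Ty frames, 50% of gained ones at Orc5 sites and 0% of gained ones in both WT lists with HU. With higher-scoring peaks only, 9 were gained and 80 shared, 100% of gained regions were in Ty frames, 0% at Orc5 sites, and 36% of lost ones were outside repeats. Whole genes, an alternative chosen after seeing the data, gave 2 gained and 12 lost. Leaving out 1 library gave 40 to 58 gained, 39 to 226 lost and 185 to 209 shared regions, 60 to 81.0% of gained ones in Ty frames, and 0.442 to 18.5% of lost ones in both WT lists with HU. Differences of shares reversed for ribosomal DNA without the first WT library (-0.0626 points, up to 0.969 without the second) and with higher-scoring peaks (-0.00945), for chromosome ends with higher-scoring peaks (-3.74) and with the same number of peaks in each list (-2.16), for gaps between convergent genes by peak midpoint (-0.125) and for Arp5 peaks outside repeats (-10.2). The causes were not tested. The share of lost regions at Orc5 sites lay between 31.5 and 54.5% in all alternatives run.

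With the replicate number as a block, the exact p was 0.5 for 11 of the 12 library measures, for example for the number of peaks (-0.36), the smallest that 2 pairs allow. Nothing says that the numbers pair the cultures; deviations of same-numbered libraries correlated with r = 0.43 over 175 shared regions. The main limits are 2 libraries per group, unknown read totals, backgrounds that differ with genotype and reads shared by repeats.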
